A study of Mus musculus with 48 samples.

Results

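Interferon-stimulated genes are the genes that a cell switches on after interferon binds its receptor, and 33 of them are described here in mouse liver. They were listed by name, as members of the canonical antiviral response. The rule itself uses no measured value, but the list was drawn up with earlier results of these data known. Of the 55414 genes in the count table, 15414 had enough reads to be tested, and all 33 were among them. By role they comprised 5 sensors of foreign nucleic acid, 3 transcription factors, 3 IFIT proteins, 5 genes of the OAS family, 2 genes of the ISG15 system, 9 other antiviral effectors, 4 interferon-inducible GTPases and 2 chemokines.

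The livers came from 48 mice of the FCG model on the C57BL/6 background, in 8 groups of 6. In this model Sry, the testis-determining gene, is deleted from the Y chromosome and supplied, or not, as an autosomal transgene, so that gonad type and sex chromosomes vary separately. Ovaries (Ov) were carried by XX and XY- mice without the transgene, and testes (Te) by XX;SryTg and XY-;SryTg mice. The Y of every XY animal, written XY below, therefore lacked its own Sry. Each genotype was studied with gonads in place (Intact) or after gonadectomy (GDX) at 75 days of age. Every group ate a high-fat diet (HFD) with 60% of calories from fat, begun at 15 to 17 weeks of age. Intact mice had 11 weeks of HFD and GDX mice had 15. Gonadectomy therefore cannot be told apart from time on the diet or from the older age at its end. The paper also names an intact and a GDX cohort, so cohort runs with gonadectomy as well. The gonads of GDX mice are named by what had been removed.

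Type I interferons (alpha and beta), type II interferon (gamma) and type III interferons (lambda) act through separate receptors. Type I and III receptors activate a complex containing STAT2 and IRF9 that binds a DNA element called the interferon-stimulated response element (ISRE), whereas type II interferon acts mainly through another element called GAS. The proteins made in response degrade viral RNA, block translation, trap virions or attract T cells. In liver these genes are active in hepatocytes and in resident and infiltrating immune cells, and whole-tissue RNA does not separate these sources.

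The ISRE is the DNA feature that many of the genes share and that their selection did not use. RefSeq promoter windows (GRCm38.p6) were available for 27 of the 33, and the 250 bases before the start site were searched on both strands for GAAANNGAAA, 10 letters that cover the ISRE core. The letters occurred in 14 of 27 members (51.9%), against 936 of 27025 genes (3.46%) of the whole RefSeq table. The GAS letters TTCNNNGAA, which read the same on both strands, occurred in 5 of 27 members (18.5%) and in 8.13% of all genes, and overlaps between the motifs were allowed. No window was found for Dhx58, Zbp1, Oas2, Usp18, Rtp4 and Parp14. The stretches below are shown for 8 members whose levels are described later, 5′ to 3′ on the strand of the gene, with the matching letters in capitals.
Isg15, chr4:156200860-156200911 (- strand): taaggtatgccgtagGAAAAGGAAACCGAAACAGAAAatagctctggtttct
Ifit1, chr19:34640770-34640828 (+ strand): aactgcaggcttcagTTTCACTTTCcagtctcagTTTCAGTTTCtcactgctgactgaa
Ifit3, chr19:34583358-34583431 (+ strand): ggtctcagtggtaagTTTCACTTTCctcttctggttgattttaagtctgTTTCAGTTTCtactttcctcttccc
Oas1a, chr5:120907526-120907560 (- strand): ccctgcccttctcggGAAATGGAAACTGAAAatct
Oas3, chr5:120777710-120777749 (- strand): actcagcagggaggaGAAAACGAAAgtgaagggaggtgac
Bst2, chr8:71537572-71537617 (- strand): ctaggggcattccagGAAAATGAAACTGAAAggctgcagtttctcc
Gbp3, chr3:142559984-142560029 (+ strand): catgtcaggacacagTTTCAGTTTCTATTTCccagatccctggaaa
Igtp, chr11:58199507-58199546 (+ strand): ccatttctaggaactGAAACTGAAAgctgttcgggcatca
In Isg15 overlapping matches formed 1 unbroken run, in Ifit1 and Ifit3 there were separate copies, and in Oas3 and Igtp there was a single copy. A match of letters is a description of the window and does not show that a factor bound there.

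Each library had between 13071874 and 20045141 reads on genes (median 16577748). Levels are given in CPM, counts scaled to the size of each library, and 3 reads were worth 0.131 to 0.254 CPM. Reads that STAR placed outside annotated genes were 3.47% to 6.20% in intact mice and 8.52% to 11.3% in GDX mice, so this difference between libraries also runs with gonadectomy. Hepatocyte markers (6 genes, among them Alb and Apoa1) summed to at least 59042 CPM in every mouse, and none was at 0. Xist and the Y-linked genes separated XX from XY mice, with 1 exception in part: an XX Te Intact library held 4.20 CPM of the Y-linked Ddx3y, against at least 44.3 CPM in every XY mouse. No member lies on the X or Y chromosome.

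All members were expressed in the liver of every mouse. The lowest reading was 6 reads, for Oas3, and only that gene fell under 10 reads in any mouse. Compared per kilobase of exon, Bst2 had the highest median level over the 48 mice, 62.6 CPM per kb, followed by Stat2 at 17.5, Igtp at 17.2 and Rtp4 at 14.1 CPM per kb. Oas3, an enzyme that makes short RNA signals after sensing double-stranded RNA, was the lowest at 0.50 CPM per kb. Chromosome 5 holds 7 members, the 5 OAS family genes and both chemokines, and the 3 Ifit genes lie together on chromosome 19.

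A single level per mouse, the mean over the 33 members of log2 CPM, shows the shape of the data before any test. Intact XX Ov mice lay from 3.62 to 5.26 (median 3.89), XX Te mice from 3.11 to 4.31 (3.48), XY Ov mice from 4.01 to 4.47 (4.18) and XY Te mice from 3.20 to 3.84 (3.61). XY Ov Intact mice lay wholly above XY Te Intact mice, whereas XX Ov and XX Te overlapped. After GDX, XX Ov mice lay from 3.72 to 4.02 (median 3.85), XX Te mice from 3.28 to 3.87 (3.59), XY Ov mice from 4.02 to 4.71 (4.24) and XY Te mice from 3.78 to 4.59 (4.21). In GDX mice the groups were ordered by sex chromosomes, with both XY medians above both XX medians.

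**Figure D1:**
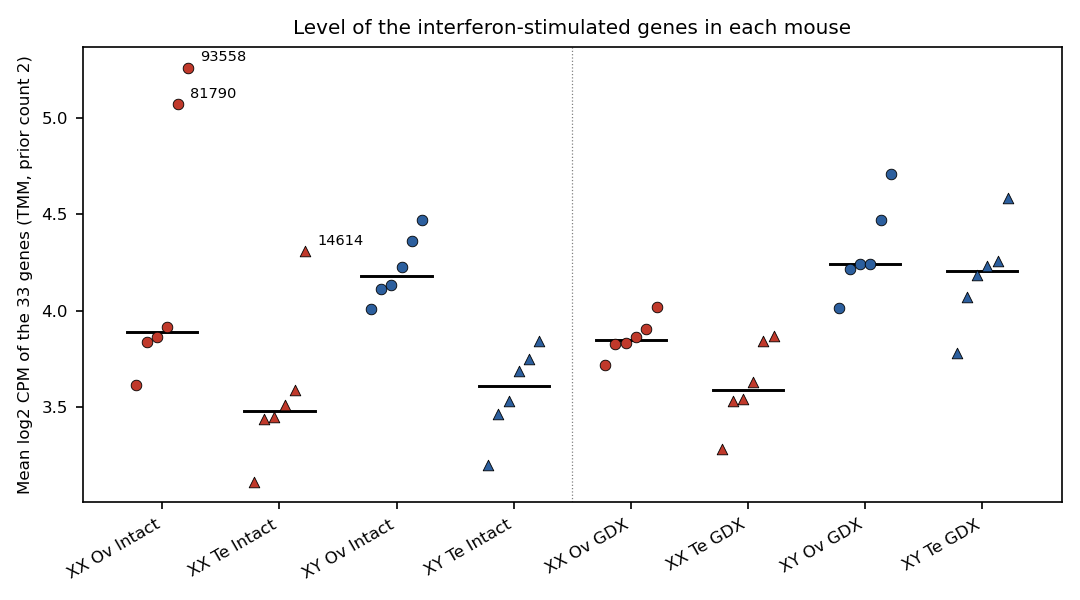
Mean log2 CPM over the 33 interferon-stimulated genes in each of 48 mice (vertical axis), by group (horizontal axis), with a line at each group median. The XX Ov Intact mice 93558 and 81790 stand at 5.26 and 5.07, above all other mice, and the remaining 4 of that group lie at 3.91 or below.

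Some mice stood far above their group, and they touch every comparison that uses them. In XX Ov Intact, mouse 93558 was the highest of all 48 for 21 of 33 members and mouse 81790 for 6 more. For each gene, the mean of the 2 highest mice of this group was set against the median of the other 4. This ratio was smallest for Bst2 (1.46) and largest for Ifit1 (4.56). For Ifit1 the 2 highest were 93558 and 81790. For Bst2 they were 81790 (137 CPM) and 97856 (112 CPM), with 93558 at 85.3 CPM. In XX Te Intact, mouse 14614 stood at 4.31 when the next mouse stood at 3.59. The summed Kupffer cell markers, 9 genes of the resident liver macrophage, ranked 27th of 48 in mouse 93558, 18th in 81790 and 9th in 14614. T and NK cell markers ranked 20th, 3rd and 5th in the same animals, and hepatocyte markers were lowest of all mice in 14614. What raised the genes in these mice was not tested. The counts of members below are therefore given for all 48 mice and, where they change, for the 46 without 93558 and 81790, an exclusion chosen after the values were seen. Values of single genes are for 48 mice unless another number is given.

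**Figure D2:**
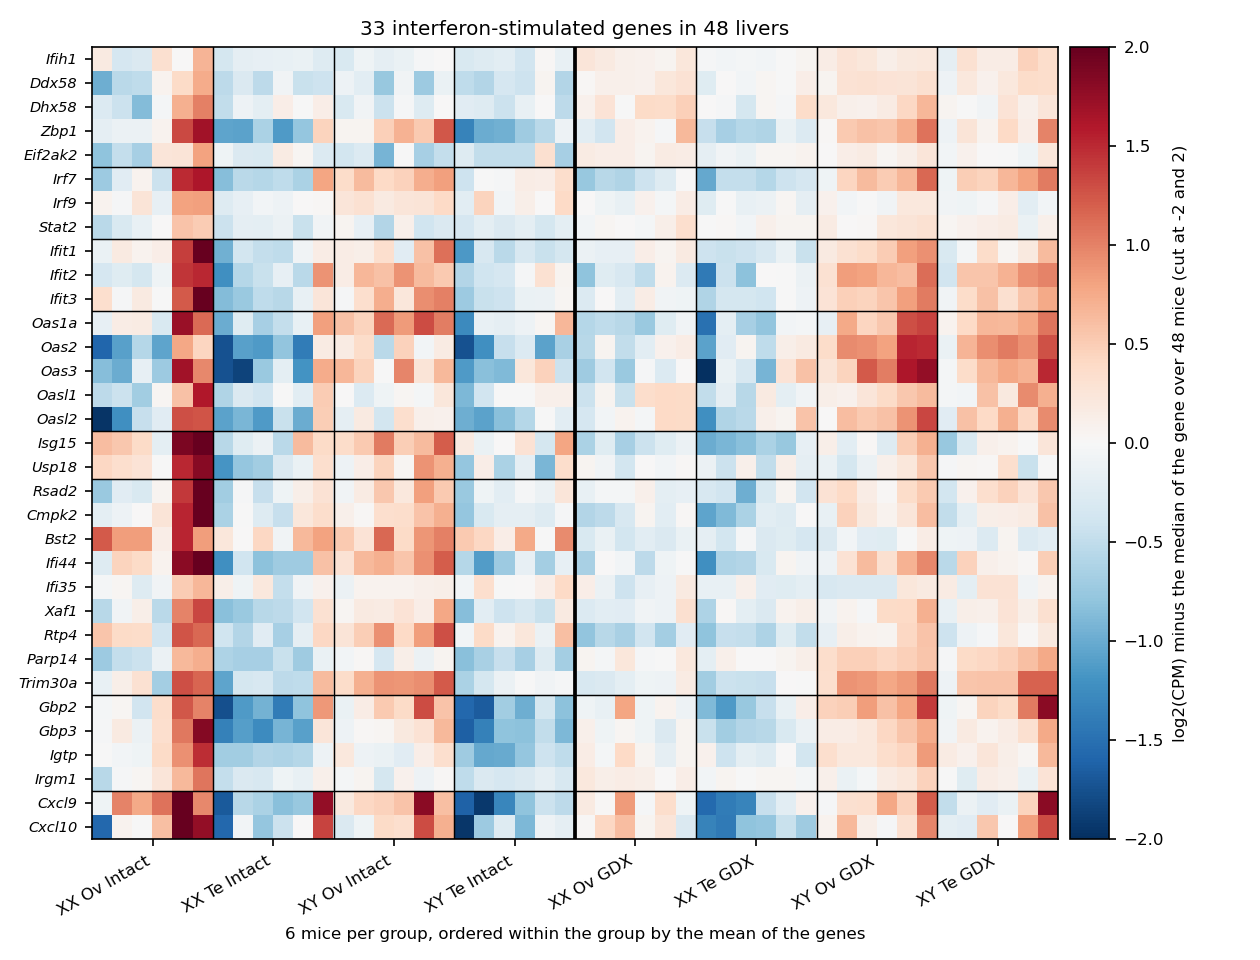
Each row is 1 of the 33 genes, grouped by role, and each column is 1 mouse, grouped by genotype and gonadectomy. Colour gives log2 CPM minus that gene's median over the 48 mice, with the most extreme values cut at the ends of the scale. Columns 93558 and 81790 in XX Ov Intact are high across most rows, and the XY GDX columns are higher than the XX GDX columns for the IFIT and OAS rows.

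The first comparison set Ov against Te in intact mice. Every Te mouse carried the Sry transgene and no Ov mouse did, so gonad type cannot be told apart from the transgene. The members differed in 1 direction: 27 of 33 were higher in Ov than in Te mice and none was lower. Of all tested genes 25.3% passed in either direction and 14.1% were higher with ovaries. The median log2 fold change was 0.74 over the members and 0.04 over all tested genes. Without mice 93558 and 81790, 18 members passed, all higher and all among the 27, with a background of 31.8% and a member median of 0.36. The 9 that did not pass in 46 mice were Ifih1, Irf7, Irf9, Ifit2, Oas2, Oas3, Oasl2, Rsad2 and Cxcl10. Values are given below as the range of 6 mice in CPM with the median in parentheses, and errors of log2 fold changes are SE. Adjusted p-values come from edgeR's quasi-likelihood test over all tested genes.

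Among the sensors, 2 of 5 were higher with ovaries. Ifih1, which encodes the cytosolic double-stranded RNA sensor MDA5, ranged in XX Ov mice from 39.6 to 80.1 CPM (53.4), in XX Te mice from 39.1 to 45.5 (44.6), in XY Ov mice from 40.8 to 50.5 (46.7) and in XY Te mice from 38.4 to 51.2 (42.7). The groups overlapped throughout and the difference was small (0.22 ± 0.07, adjusted p = 0.0280), and it did not pass without the 2 highest mice (log2 fold change 0.14, adjusted p = 0.0913). Zbp1, a sensor of left-handed nucleic acid that can trigger cell death, ranged in XX Ov mice from 10.6 to 38.5 CPM (11.8), in XX Te mice from 5.46 to 16.4 (6.4), in XY Ov mice from 12.5 to 28.2 (17) and in XY Te mice from 4.73 to 11.2 (6.72). XY Ov mice did not overlap XY Te mice, and the overall log2 fold change was 1.27 ± 0.20, adjusted p = 6.40e-06. Eif2ak2, the kinase PKR that halts translation, ranged in XX Ov mice from 15.6 to 47.5 CPM (25.9), in XX Te mice from 22 to 30.6 (24.1), in XY Ov mice from 14.3 to 27.1 (20.4) and in XY Te mice from 17.3 to 34 (19.5). Its groups overlapped and did not pass the test, and neither did those of Ddx58 (RIG-I) and Dhx58 (LGP2).

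Of the transcription factors, Irf7 and Irf9 were higher with ovaries and Stat2 did not pass. Irf7, which amplifies type I interferon production, ranged in XX Ov mice from 18 to 91.3 CPM (28.3), in XX Te mice from 16.4 to 51.2 (20.2), in XY Ov mice from 38.6 to 52.7 (43.5) and in XY Te mice from 22.4 to 37.8 (31.1). XY Ov mice lay just above XY Te mice, and the XX groups overlapped. The log2 fold change was 0.70 ± 0.20, adjusted p = 0.00781. Irf9, the DNA-binding subunit of the ISRE complex, ranged in XX Ov mice from 31.1 to 61.5 CPM (39.3), in XX Te mice from 29.4 to 35.7 (33.2), in XY Ov mice from 39.6 to 46.1 (41.7) and in XY Te mice from 30.3 to 47.7 (36.5), with a log2 fold change of 0.29 ± 0.08, adjusted p = 0.00932.

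All 3 IFIT genes, whose proteins bind viral RNA and block its translation, were higher with ovaries. Ifit1 ranged in XX Ov mice from 14.1 to 112 CPM (17.3), in XX Te mice from 7.96 to 17.2 (11.5), in XY Ov mice from 13.3 to 33.3 (18.4) and in XY Te mice from 7.0 to 12.4 (11.7). Mouse 93558 alone stood at 112 CPM, with the next XX Ov mouse at 40.2, and XY Ov mice did not overlap XY Te mice. The log2 fold change was 1.23 ± 0.22, adjusted p = 4.05e-05 in 48 mice and 0.65 (adjusted p = 0.000240) in 46. Ifit3 ranged in XX Ov mice from 16.8 to 83.6 CPM (20.4), in XX Te mice from 9.37 to 20.2 (11.8), in XY Ov mice from 16.7 to 34.3 (24.9) and in XY Te mice from 10.3 to 17.5 (14.1), with a log2 fold change of 1.10 ± 0.18, adjusted p = 1.33e-05. Ifit2 was higher with ovaries as well (0.74 ± 0.21, adjusted p = 0.00760).

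In the OAS family, whose enzymes activate the RNase L pathway of RNA decay, 4 of 5 members were higher with ovaries. Oas1a ranged in XX Ov mice from 2.74 to 11.1 CPM (3.75), in XX Te mice from 1.69 to 5.99 (2.64), in XY Ov mice from 4.6 to 8.29 (6.48) and in XY Te mice from 1.4 to 5.34 (3.09). Oas2 ranged in XX Ov mice from 2.43 to 12.5 CPM (4.23), in XX Te mice from 2.2 to 8.19 (3.39), in XY Ov mice from 5.02 to 10.1 (8.25) and in XY Te mice from 2.2 to 6.08 (4.08). Oas3 ranged in XX Ov mice from 1.33 to 8.5 CPM (1.97), in XX Te mice from 0.727 to 4.4 (1.4), in XY Ov mice from 2.62 to 5.18 (3.87) and in XY Te mice from 1.2 to 3.65 (1.72). In all 3 genes the XY Ov median was the highest of the intact groups, and the Ov and Te ranges overlapped on both chromosome backgrounds. Log2 fold changes were 0.90, 0.78 and 0.86, with adjusted p of 0.00177, 0.00804 and 0.0282. Oasl2, an OAS-like protein, ranged in XX Ov mice from 2.84 to 26.8 CPM (8.7), in XX Te mice from 5.03 to 15.5 (5.69), in XY Ov mice from 8.52 to 14 (11.7) and in XY Te mice from 5.22 to 11 (6.82), with a log2 fold change of 0.70 ± 0.24, adjusted p = 0.0316. Oasl1 did not pass.

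Both genes of the ISG15 system were higher with ovaries. Isg15 encodes a ubiquitin-like protein that is attached to other proteins, and it ranged in XX Ov mice from 4.17 to 22.8 CPM (7.18), in XX Te mice from 3.27 to 7.45 (4.23), in XY Ov mice from 6.15 to 11.1 (7.14) and in XY Te mice from 3.75 to 8.23 (5.12). Its log2 fold change was 0.88 ± 0.19, adjusted p = 0.000727. Usp18, which removes ISG15 and dampens the type I receptor, ranged in XX Ov mice from 11.7 to 41.3 CPM (15.3), in XX Te mice from 5.19 to 14.8 (8.43), in XY Ov mice from 11 to 21.9 (14.4) and in XY Te mice from 6.25 to 15 (9.0). The log2 fold change was 0.97 ± 0.18, adjusted p = 6.26e-05, and in both genes the Ov and Te ranges overlapped on each chromosome background.

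Of the 9 other effectors, 8 were higher with ovaries, and Ifi35 was not. Rsad2, the enzyme viperin that makes a chain-terminating nucleotide, ranged in XX Ov mice from 8.59 to 64 CPM (13.6), in XX Te mice from 8.86 to 17.6 (13.8), in XY Ov mice from 13.7 to 25.4 (18.6) and in XY Te mice from 8.6 to 17.1 (13.4). In XX mice its Ov and Te medians were almost equal, and its log2 fold change of 0.72 ± 0.20, adjusted p = 0.00659 fell to 0.18 (adjusted p = 0.264) in 46 mice. Ifi44, an antiviral protein found beside the GTPases of its class, ranged in XX Ov mice from 5.84 to 32.4 CPM (9.27), in XX Te mice from 2.99 to 10.5 (4.26), in XY Ov mice from 8.53 to 16.2 (11.1) and in XY Te mice from 3.19 to 6.22 (4.51). This was among the largest differences, 1.39 ± 0.21, adjusted p = 3.32e-06, and the XY Ov and XY Te mice did not overlap. Bst2, the membrane protein tetherin that holds budding virions at the cell surface, ranged in XX Ov mice from 52.4 to 137 CPM (85.4), in XX Te mice from 45.4 to 83.8 (59.9), in XY Ov mice from 57.6 to 106 (78.4) and in XY Te mice from 47.7 to 91.8 (66.5). Here the groups overlapped widely and the difference was smaller (0.41 ± 0.11, adjusted p = 0.00785).

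Rtp4, a chaperone of receptors and a negative regulator of interferon responses, ranged in XX Ov mice from 17 to 52.8 CPM (30.7), in XX Te mice from 14 to 29.4 (17.8), in XY Ov mice from 26.5 to 54.2 (35.3) and in XY Te mice from 20.5 to 33.4 (24.5). Parp14, an ADP-ribosyl transferase, ranged in XX Ov mice from 39.1 to 108 CPM (54.2), in XX Te mice from 39.8 to 59 (41.8), in XY Ov mice from 51.6 to 70.3 (64.6) and in XY Te mice from 36.5 to 54.4 (41.3). Trim30a, a mouse TRIM protein, ranged in XX Ov mice from 8.0 to 31.3 CPM (15), in XX Te mice from 6.21 to 20.1 (9.56), in XY Ov mice from 16.6 to 30.2 (23.8) and in XY Te mice from 8.33 to 12.7 (12). Trim30a separated XY Ov from XY Te mice, and Rtp4 and Parp14 overlapped. The log2 fold changes were 0.71 ± 0.14, adjusted p = 0.000132 for Rtp4, 0.56 ± 0.11, adjusted p = 0.000212 for Parp14 and 0.90 ± 0.17, adjusted p = 9.13e-05 for Trim30a. Cmpk2 (0.80), the neighbour of Rsad2 on chromosome 12, and the apoptosis factor Xaf1 (0.70) were also higher.

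The 4 interferon-inducible GTPases, which attack the vacuoles that hold intracellular pathogens and are known as strong targets of interferon gamma, were all higher with ovaries. Gbp2 ranged in XX Ov mice from 9.11 to 28.1 CPM (13.6), in XX Te mice from 3.5 to 21.5 (5.8), in XY Ov mice from 10.8 to 29.3 (16.3) and in XY Te mice from 3.74 to 9.25 (6.36). Gbp3 ranged in XX Ov mice from 15.9 to 62 CPM (20.8), in XX Te mice from 6.83 to 20.6 (8.16), in XY Ov mice from 16.3 to 27.3 (18.9) and in XY Te mice from 5.6 to 12.4 (9.6). Igtp ranged in XX Ov mice from 32.8 to 96.5 CPM (40.1), in XX Te mice from 21.3 to 32.2 (22.9), in XY Ov mice from 29.7 to 44 (35.1) and in XY Te mice from 17 to 26 (20.7). Igtp was the only member whose 6 Ov and 6 Te mice did not overlap among XX mice, where 1.91% of tested genes did not overlap. On the XY background 10 members did not overlap (Zbp1, Irf7, Ifit1, Cmpk2, Ifi44, Trim30a, Gbp2, Gbp3, Igtp and Cxcl9), all higher with ovaries, against 3.98% of tested genes in either direction. Log2 fold changes were 1.26 ± 0.24, adjusted p = 0.000148 for Gbp2, 1.34 ± 0.17, adjusted p = 1.26e-07 for Gbp3 and 0.94 ± 0.13, adjusted p = 2.77e-07 for Igtp. In 46 mice they were 1.02, 1.02 and 0.69, and all still passed. Irgm1, which controls the other GTPases, ranged in XX Ov mice from 39.6 to 123 CPM (64.6), in XX Te mice from 41.8 to 62.5 (50.2), in XY Ov mice from 45.9 to 61.7 (58.1) and in XY Te mice from 41.1 to 51.6 (47.2), with a log2 fold change of 0.40 ± 0.10, adjusted p = 0.00312.

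The chemokines Cxcl9 and Cxcl10 draw T cells through the receptor CXCR3. Cxcl9 ranged in XX Ov mice from 12.6 to 54.3 CPM (26.3), in XX Te mice from 4.18 to 45 (8.26), in XY Ov mice from 15.3 to 46.6 (19) and in XY Te mice from 3.51 to 9.9 (6.52). Cxcl10 ranged in XX Ov mice from 1.3 to 18.2 CPM (4.94), in XX Te mice from 1.3 to 9.82 (3.28), in XY Ov mice from 3.16 to 9.48 (4.95) and in XY Te mice from 1.0 to 3.6 (2.78). Cxcl9 had the largest log2 fold change of all members, 1.41 ± 0.30, adjusted p = 0.000505, and XY Ov mice lay above XY Te mice. Cxcl10 had 1.01 ± 0.28, adjusted p = 0.00824 in 48 mice and 0.49 (adjusted p = 0.140) in 46.

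Markers of some immune cells moved with the gonad as well. Of 10 T and NK cell markers, 8 were higher with ovaries and 1 was lower, with Cd3d at a log2 fold change of 2.76 and Cd3e at 2.25. Their summed level in intact XX Ov mice was 4.80 to 20.4 CPM, in XX Te mice 3.56 to 15.9, in XY Ov mice 7.50 to 26.4 and in XY Te mice 5.53 to 11.7. Of 9 Kupffer cell markers, 6 were higher with ovaries, and no marker of either list was at a median of 0 reads. In 46 mice these were 6 higher and 1 lower of 10, and 5 higher of 9. No monocyte-derived macrophage marker passed in edgeR in 46 mice (1 at an unadjusted p under 0.05). Of the other lists in 48 mice, 2 of 5 B cell markers, 2 of 6 monocyte-derived macrophage markers, 1 of 5 plasmacytoid dendritic cell markers (Bst2 itself) and none of 5 neutrophil markers (1 at an unadjusted p under 0.05 in edgeR) were higher, beside the 25.3% of all tested genes. Of 6 hepatocyte markers 1 was lower (Serpina1c). In bulk tissue, more cells of a type and more RNA per cell cannot be told apart, and the part of these cells in the members' differences was not tested.

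The second comparison asked whether the sex chromosomes changed the genes, with XX set against XY within the same gonad. Over intact and GDX mice together, 7 members were lower in XX and none was higher, against 36.7% of all tested genes in either direction, which is a larger share than among the members (21.2%). The 7 were Irf7, Ifit2, Oas1a, Oas2, Oas3, Rtp4 and Trim30a. The largest differences, XX minus XY, were those of Oas3 (-0.70 ± 0.21, adjusted p = 0.00640), Oas2 (-0.66 ± 0.15, adjusted p = 0.000560) and Oas1a (-0.66 ± 0.15, adjusted p = 0.000494). Without the 2 highest XX Ov Intact mice 21 members were lower in XX, with a background of 38.2%. All 7 were among the 21, so the pooled count was lower with those animals and the 7 calls did not rest on them. Intact and GDX mice are taken separately below.

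In intact mice edgeR called none of the 33 members different between XX and XY, when 10.7% of all tested genes did, 4.27% with the higher level in XX and 6.42% with the lower. DESeq2 called none either, and 6 members had an unadjusted p under 0.05 in edgeR. The smallest p-values belonged to Igtp (log2 fold change 0.35 ± 0.13, adjusted p = 0.0614), Eif2ak2 (0.31 ± 0.12, adjusted p = 0.0850) and Irgm1 (0.25 ± 0.10, adjusted p = 0.0995), all with higher means in XX. In 46 mice their log2 fold changes were 0.11, 0.13 and 0.07. In those 46 mice 5 members passed, all lower in XX, with a background of 12.7%: Irf7 (-0.59), Oas2 (-0.59), Trim30a (-0.49), Rtp4 (-0.45) and Irf9 (-0.22). The median over the members moved from 0.14 to -0.16. No member separated all XX from all XY mice, intact (0.0649% of tested genes) or GDX (8.06%), or all Ov from all Te mice, intact (0.597%) or GDX (0.026%). Within single gonads, no member separated the 6 XX from the 6 XY mice within intact Ov or within intact Te, against 4.28% and 0.506% of tested genes.

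**Figure D3:**
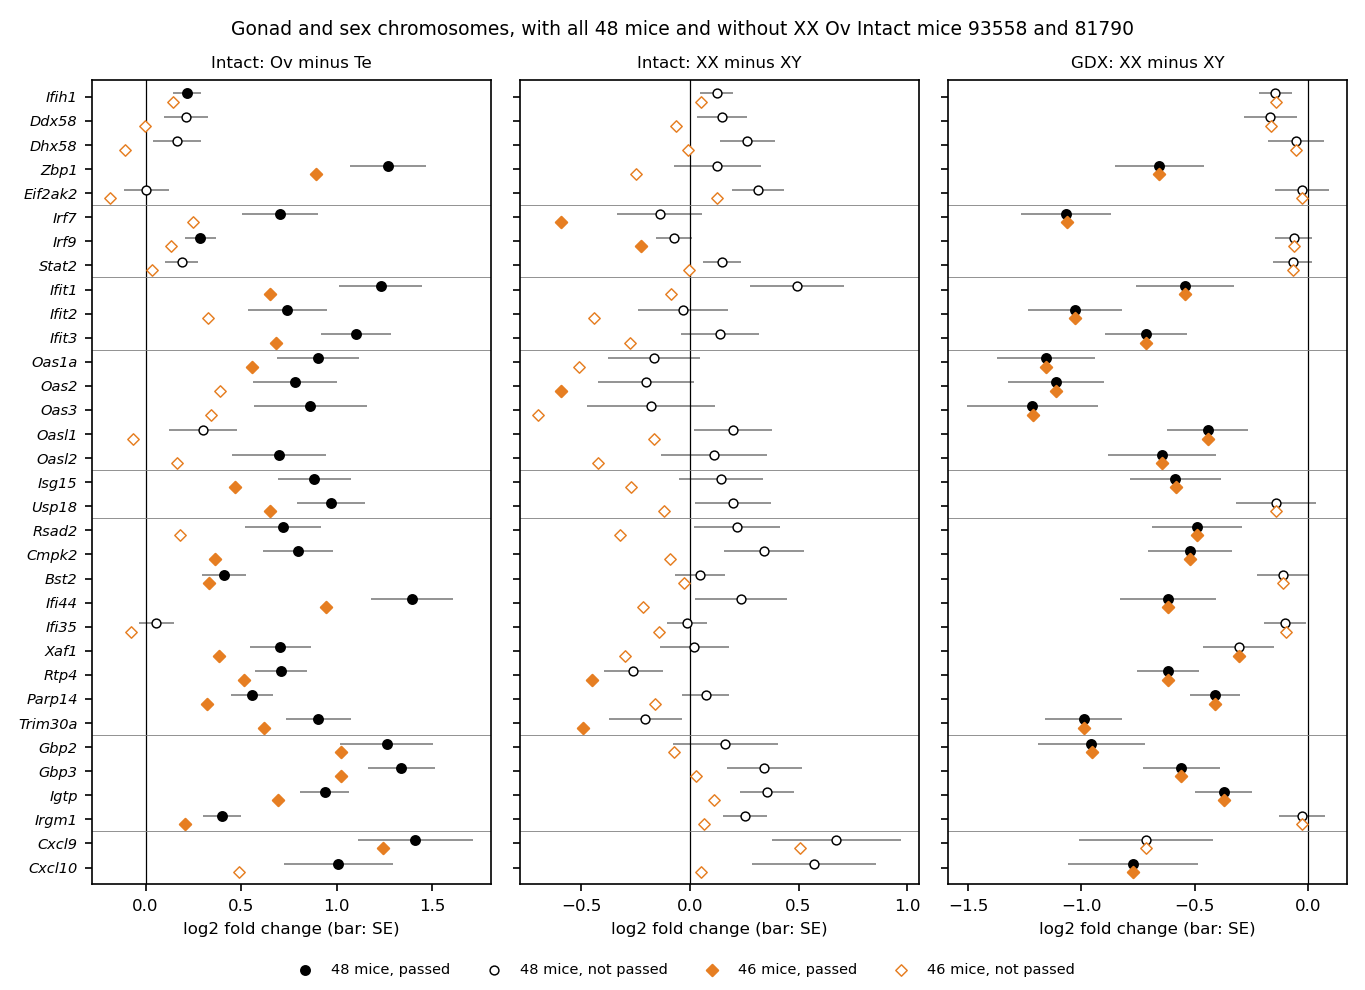
Log2 fold change with SE (horizontal axis) of each of the 33 genes (vertical axis) for Ov minus Te in intact mice, XX minus XY in intact mice and XX minus XY in GDX mice, with circles for all 48 mice and diamonds for the 46 without mice 93558 and 81790, filled where the adjusted p was under 0.05. The left panel lies to the right of 0 with 27 filled circles, the middle panel has no filled circle and 5 filled diamonds, and the right panel lies wholly to the left of 0 with 21 filled circles and 22 filled diamonds.

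After gonadectomy the genes were lower in XX than in XY mice. All 33 members had a negative log2 fold change and 21 passed the test, against 34.3% of all tested genes in either direction and 14.8% that were lower in XX. The median was -0.54 over the members and 0.08 over all tested genes. No GDX mouse was among those left out, and the count without the 2 highest mice was 22, including all 21. Of the 27 genes that were higher with ovaries in intact mice, 20 (74.1%) were among the 21 higher in XY after GDX, 95.2% of the latter. Over all 33 members these shares were 63.6% higher in XY after GDX and 81.8% higher with ovaries. Shares of that size give a large overlap by themselves. These comparisons use different mice.

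Oas1a, Oas2 and Oas3 differed most. Oas1a ranged in XX Ov mice from 2.01 to 3.2 CPM (2.33), in XX Te mice from 1.2 to 3.29 (2.53), in XY Ov mice from 3.01 to 8.57 (5.32) and in XY Te mice from 3.53 to 7.12 (5.33). Oas2 ranged in XX Ov mice from 5.0 to 8.09 CPM (6.98), in XX Te mice from 3.48 to 8.32 (6.93), in XY Ov mice from 9.43 to 21.1 (14) and in XY Te mice from 6.69 to 17.8 (13.9). Oas3 ranged in XX Ov mice from 1.58 to 2.66 CPM (2.1), in XX Te mice from 0.38 to 3.97 (2.26), in XY Ov mice from 3.14 to 8.88 (5.78) and in XY Te mice from 2.56 to 7.54 (4.2). Oas1a separated XX from XY mice among Te, and Oas2 and Oas3 among Ov. The log2 fold changes, XX minus XY, were -1.16 ± 0.22, adjusted p = 3.33e-05 for Oas1a, -1.11 ± 0.21, adjusted p = 4.37e-05 for Oas2 and -1.22 ± 0.29, adjusted p = 0.000860 for Oas3, so that levels in XY were 2.23, 2.16 and 2.33 times those in XX. Oasl2 ranged in XX Ov mice from 8.75 to 14.6 CPM (11.1), in XX Te mice from 4.69 to 16.4 (9.5), in XY Ov mice from 11 to 27.9 (16.7) and in XY Te mice from 9.46 to 21.2 (15.6), with -0.64 ± 0.24, adjusted p = 0.0327, and Oasl1 was lower as well (-0.44), so that all 5 OAS family genes passed.

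The IFIT genes passed too, all 3 of them. Ifit1 ranged in XX Ov mice from 13.8 to 17.5 CPM (15.3), in XX Te mice from 11.3 to 14.2 (11.6), in XY Ov mice from 17.6 to 29.2 (21.1) and in XY Te mice from 12.6 to 24.1 (16.9). Ifit3 ranged in XX Ov mice from 14.2 to 18.9 CPM (16.1), in XX Te mice from 11.3 to 16.9 (13.3), in XY Ov mice from 20.5 to 35.2 (24.3) and in XY Te mice from 16.3 to 28.8 (23.6). In both, XX Ov and XY Ov mice did not overlap. The log2 fold changes were -0.54 ± 0.21, adjusted p = 0.0454 for Ifit1, -1.03 ± 0.21, adjusted p = 0.000101 for Ifit2 and -0.72 ± 0.18, adjusted p = 0.00153 for Ifit3.

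Irf7 was the only transcription factor of the 3 that passed. It ranged in XX Ov mice from 17.6 to 29.9 CPM (21.3), in XX Te mice from 14.6 to 23.7 (21.4), in XY Ov mice from 28.1 to 66.2 (44.1) and in XY Te mice from 28.1 to 60.8 (44.6). The medians of both XY groups were near 44 CPM and those of both XX groups near 21 CPM, the Te groups did not overlap, and the log2 fold change was -1.07 ± 0.20, adjusted p = 3.03e-05. Irf9 and Stat2 did not pass.

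Zbp1 was the only sensor of 5 that passed. It ranged in XX Ov mice from 9.18 to 18.8 CPM (12.2), in XX Te mice from 7.6 to 10.9 (8.39), in XY Ov mice from 12.2 to 25.6 (17.8) and in XY Te mice from 11.2 to 23.7 (13.8), with -0.66 ± 0.20, adjusted p = 0.00770. Ifih1 ranged in XX Ov mice from 52 to 59.3 CPM (55.3), in XX Te mice from 48.2 to 52.1 (49.1), in XY Ov mice from 54.6 to 60.4 (57.7) and in XY Te mice from 44.4 to 68.9 (58.9). Eif2ak2 ranged in XX Ov mice from 28.5 to 30.6 CPM (30.2), in XX Te mice from 24.1 to 28.8 (27), in XY Ov mice from 27.5 to 32.3 (29.7) and in XY Te mice from 25.8 to 32 (27.3). In these last genes the XX and XY ranges overlapped.

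Isg15 ranged in XX Ov mice from 3.02 to 4.41 CPM (3.79), in XX Te mice from 2.41 to 4.29 (2.75), in XY Ov mice from 4.0 to 7.84 (5.03) and in XY Te mice from 2.83 to 5.66 (4.89). It was lower in XX (-0.58 ± 0.20, adjusted p = 0.0193), and the XX and XY ranges overlapped within each gonad. Usp18 ranged in XX Ov mice from 9.13 to 12.3 CPM (11.6), in XX Te mice from 8.36 to 12.8 (10.7), in XY Ov mice from 9.18 to 17.1 (11.7) and in XY Te mice from 8.68 to 14.9 (11.8) and did not pass.

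Among the other effectors 6 of 9 were lower in XX. Rsad2 ranged in XX Ov mice from 12.6 to 15.5 CPM (13.5), in XX Te mice from 7.32 to 15 (11.2), in XY Ov mice from 14.7 to 20.7 (18) and in XY Te mice from 11.1 to 20.9 (17.8). Rtp4 ranged in XX Ov mice from 12.8 to 19 CPM (14.5), in XX Te mice from 12.7 to 18.8 (15.8), in XY Ov mice from 19.8 to 32.8 (23.7) and in XY Te mice from 16.6 to 26 (22.1). Parp14 ranged in XX Ov mice from 63.3 to 75.8 CPM (66.5), in XX Te mice from 57.1 to 70.5 (66.3), in XY Ov mice from 82.8 to 95.7 (90.3) and in XY Te mice from 64.4 to 110 (88.7). In Rtp4 and Parp14 the XX Ov mice lay below the XY Ov mice. The log2 fold changes were -0.49 ± 0.20, adjusted p = 0.0494 for Rsad2, -0.62 ± 0.14, adjusted p = 0.000347 for Rtp4 and -0.41 ± 0.11, adjusted p = 0.00270 for Parp14. Ifi44 ranged in XX Ov mice from 4.47 to 6.99 CPM (6.65), in XX Te mice from 2.98 to 7.2 (5.15), in XY Ov mice from 6.48 to 13.6 (9.73) and in XY Te mice from 4.78 to 9.79 (7.42), with -0.62 ± 0.21, adjusted p = 0.0196, and Trim30a ranged in XX Ov mice from 10.4 to 14.4 CPM (11.6), in XX Te mice from 7.92 to 12.9 (9.48), in XY Ov mice from 16.2 to 26.9 (23.4) and in XY Te mice from 12 to 29.3 (19.1), with -0.99 ± 0.17, adjusted p = 6.44e-06. Cmpk2 passed as well (-0.52). Bst2 ranged in XX Ov mice from 37.3 to 43.8 CPM (40.3), in XX Te mice from 37.3 to 47 (40), in XY Ov mice from 39.3 to 53.1 (43.5) and in XY Te mice from 39.6 to 49.8 (43), overlapped between XX and XY, and did not pass, and neither did Xaf1 and Ifi35.

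Of the GTPases, Gbp2, Gbp3 and Igtp were lower in XX. Gbp2 ranged in XX Ov mice from 10.7 to 20.6 CPM (11.2), in XX Te mice from 5.41 to 13 (7.81), in XY Ov mice from 16.4 to 31.3 (19.1) and in XY Te mice from 11.1 to 41.4 (15.8). Gbp3 ranged in XX Ov mice from 14.2 to 18.6 CPM (17.1), in XX Te mice from 10.8 to 16.1 (12.3), in XY Ov mice from 19.3 to 29 (21.6) and in XY Te mice from 16.6 to 29.5 (19.5). Gbp3 was the only member that separated XX from XY mice within both gonads. Igtp ranged in XX Ov mice from 30.6 to 45.6 CPM (36), in XX Te mice from 26.1 to 36.9 (29.7), in XY Ov mice from 40.2 to 62.5 (44.1) and in XY Te mice from 35.5 to 54.4 (38.3). The log2 fold changes were -0.96 ± 0.24, adjusted p = 0.00135 for Gbp2, -0.56 ± 0.17, adjusted p = 0.00871 for Gbp3 and -0.37 ± 0.13, adjusted p = 0.0174 for Igtp. Irgm1 ranged in XX Ov mice from 58.7 to 67.9 CPM (63.7), in XX Te mice from 56.1 to 60.4 (58.8), in XY Ov mice from 53 to 80.8 (64.1) and in XY Te mice from 49.1 to 70.9 (60.3) and did not pass. Of the chemokines, Cxcl10 ranged in XX Ov mice from 3.14 to 5.91 CPM (4.28), in XX Te mice from 1.44 to 2.83 (2.23), in XY Ov mice from 3.8 to 7.58 (4.47) and in XY Te mice from 3.28 to 9.49 (4.72) and was lower in XX (-0.77 ± 0.29, adjusted p = 0.0317), whereas Cxcl9 ranged in XX Ov mice from 12.6 to 24.2 CPM (14.3), in XX Te mice from 4.56 to 14.2 (7.51), in XY Ov mice from 13.1 to 30.9 (17.6) and in XY Te mice from 9.52 to 46.5 (12.3) and did not pass.

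Within Ov GDX mice 9 members did not overlap between XX and XY (Ifit1, Ifit2, Ifit3, Oas2, Oas3, Rtp4, Parp14, Trim30a and Gbp3), against 19.1% of tested genes. Within Te GDX mice 5 did not overlap (Zbp1, Irf7, Oas1a, Gbp3 and Cxcl10), against 13.9%.

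**Figure D4:**
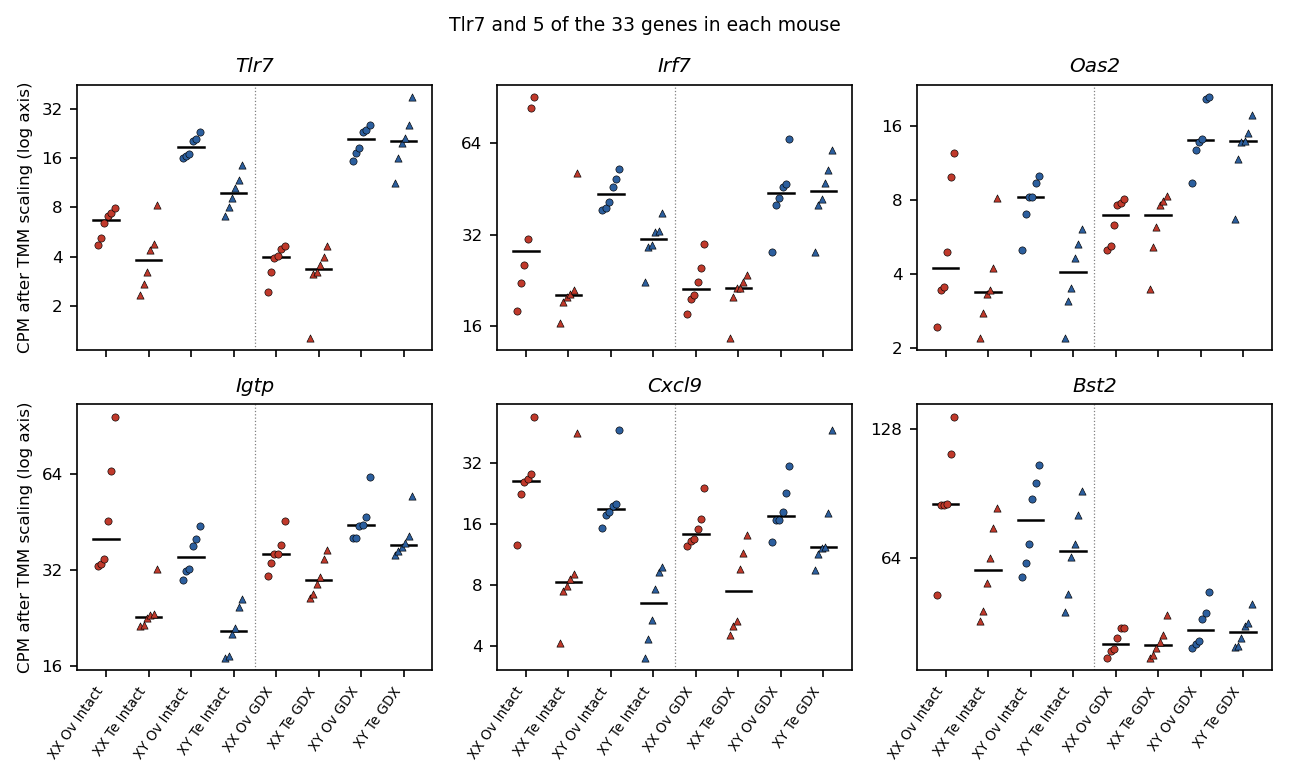
CPM in each of the 48 mice (vertical axis, 1 panel a gene) of the X-linked sensor Tlr7 and of Irf7, Oas2, Igtp, Cxcl9 and Bst2, by group (horizontal axis), with a line at each group median. Tlr7 medians are 3.37 to 6.73 CPM in the XX groups and 9.84 to 20.9 CPM in the XY groups, and Irf7 and Oas2 are higher in XY than in XX after GDX.

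Whether the sex-chromosome difference changed with gonadectomy was tested as an interaction. Only 2 of 33 members passed, against 2.12% of all tested genes: Gbp3 (-0.90 ± 0.24, adjusted p = 0.0367) and Igtp (-0.73 ± 0.18, adjusted p = 0.0223), both more negative after GDX. With DESeq2 13 passed, 22 members had an unadjusted p under 0.05 in edgeR, and the median over the members was -0.73. In 46 mice edgeR called no member, with 14 at an unadjusted p under 0.05 and a background of 0.425%, and the median was -0.32. Leaving out the single XX Te Intact mouse 14614 also left no member past the threshold, and leaving out single mice in turn gave from 0 to 18 members.  Whether the effect of sex chromosomes differed between Ov and Te was also tested in intact mice, and edgeR called no member there (0 at an unadjusted p under 0.05, and 0 with DESeq2), when 0% of all tested genes passed.

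Tlr7, an endosomal sensor of single-stranded RNA that feeds into IRF7, is encoded on the X chromosome and differed more between XX and XY than any member. It ranged in XX Ov mice from 4.69 to 7.92 CPM (6.73), in XX Te mice from 2.31 to 8.24 (3.81), in XY Ov mice from 16.2 to 23.3 (18.7) and in XY Te mice from 7.07 to 14.5 (9.84) among intact mice. After GDX it ranged in XX Ov mice from 2.44 to 4.62 CPM (3.98), in XX Te mice from 1.27 to 4.62 (3.37), in XY Ov mice from 15.3 to 25.5 (20.9) and in XY Te mice from 11.3 to 38.3 (20.5). The XX and XY mice did not overlap within any gonad except intact Te, and the log2 fold changes, XX minus XY, were -1.41 ± 0.18 in intact and -2.59 ± 0.18 in GDX mice. Some C57BL/6 FCG stocks have been reported to carry a stretch of X chromosome with Tlr7 on their Y, and the labels do not say whether this stock does. All 7 tested genes of that stretch (Arhgap6, Hccs, Msl3, Prps2, Tlr7, Tlr8 and Tmsb4x) were higher in XY in both intact and GDX mice. The part of these genes in the members' differences was not tested.

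Cell markers differed between the chromosomes too, beside 10.7% of all tested genes called in intact mice and 34.3% in GDX mice. Kupffer cell markers were higher in XY for 6 of 9 genes in intact mice and 8 of 9 in GDX mice. Summed over the list, XX Ov GDX mice had 276 to 495 CPM, XX Te GDX mice 196 to 436, XY Ov GDX mice 685 to 1244 and XY Te GDX mice 503 to 1511. Intact XX Ov mice had 377 to 833 CPM, XX Te mice 300.2 to 997, XY Ov mice 822 to 1413 and XY Te mice 376 to 918. T and NK cell markers were higher in XY for 5 of 10 genes after GDX and for none in intact mice, where none had an unadjusted p under 0.05 in edgeR. B cell markers were higher in XY for 5 of 5 genes after GDX and 1 of 5 in intact mice, and all 5 tested neutrophil markers were higher in XY in both. Of the tested monocyte-derived macrophage markers 3 of 6 were higher in XY in intact mice, and after GDX 2 were higher in XY and 1 in XX. Of 5 tested markers of plasmacytoid dendritic cells, the main producers of type I interferon, Cox6a2 was higher in XY in both and Bst2, itself a member, was not called. In these lists only Ly6g, of neutrophils, was at a median of 0 reads. Hepatocyte markers differed for 1 of 6 genes after GDX (Ttr, higher in XX) and for none in intact mice. The part of these cells in the members' differences was not tested.

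The third comparison set GDX against intact mice within a gonad type. Gonadectomy came with more weeks of diet, an older age at the end of the diet, another cohort and other library make-up. Over all tested genes 69.4% passed after ovariectomy and 63.3% after castration, so that most tested genes differed. Ovariectomy and castration both share their intact mice with the comparison of gonads. They share their GDX mice with the comparison of XX and XY after GDX. The values here are therefore not independent of those above.

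After ovariectomy 13 members were lower and 6 were higher (57.6% called, beside 69.4% of all tested genes). Of all tested genes 36% were higher and 33.4% lower, so the share of members called was below the background. The median log2 fold change, GDX minus Intact, was -0.28 over the members and 0.06 over all tested genes. The split of the members rested on the 2 highest intact mice. Without them 3 members were lower and 10 higher, with a background of 70.9% and a member median of 0.05. The genes lower in both sets were Isg15 (-1.06 ± 0.19, adjusted p = 7.48e-06), Bst2 (-1.02 ± 0.12, adjusted p = 7.38e-10) and Rtp4 (-0.87 ± 0.14, adjusted p = 4.90e-07), which were also the 3 largest changes. In 46 mice their log2 fold changes were -0.65, -0.94 and -0.68. Bst2 fell from medians of 85.4 and 78.4 CPM in XX and XY Ov Intact mice to 40.3 and 43.5 CPM after ovariectomy. The other 10 that were lower in 48 mice, among them Irf7, Ifit1, Usp18, Rsad2 and Ifi44, did not pass in 46. Ifit1 moved from -0.55 to 0.03 and Rsad2 from -0.48 to 0.05. Those higher in 48 mice were the sensors Ifih1 (0.16), Ddx58 (0.36), Dhx58 (0.28) and Eif2ak2 (0.33), together with Oas2 (0.52) and Parp14 (0.26), and all of these passed in 46 mice as well. Of the cell markers, 5 of 10 for T and NK cells (4 in 46 mice), 3 of 9 for Kupffer cells (3 in 46) and 4 of 5 for neutrophils (3 in 46) were lower after ovariectomy, and none of these was higher. For Kupffer cells the share lower (33.3%) was near that of all tested genes (33.4%). Of the other lists, 2 B cell markers were lower and 1 higher, and 2 monocyte-derived macrophage markers were lower and 2 higher. For plasmacytoid dendritic cells 1 marker was lower and 2 were higher, and 3 hepatocyte markers were lower and 1 higher. The part of these cells in the members' changes was not tested.

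After castration 14 members were higher and 2 were lower (48.5% called). Of all tested genes 63.3% were called, 33.4% higher and 29.9% lower, so the share of members called was below the background. In 46 mice 19 members passed, including these 16 in the same direction, with a background of 63.7%. The median log2 fold change was 0.30 over the members and 0.07 over all tested genes. The largest rises were those of Oas2 (1.17 ± 0.22, adjusted p = 1.63e-05), Gbp2 (0.89 ± 0.24, adjusted p = 0.00165) and Parp14 (0.79 ± 0.11, adjusted p = 1.03e-07). In Oas2 the medians rose from 3.39 to 6.93 CPM in XX Te and from 4.08 to 13.9 CPM in XY Te mice. All 4 GTPases rose, among them Gbp3 (0.78), Igtp (0.65) and Irgm1 (0.27), as did Zbp1 (0.60), Ifih1 (0.31), Ddx58 (0.46), Stat2 (0.30), Ifit3 (0.41), Oasl2 (0.73), Xaf1 (0.36) and Trim30a (0.42). Isg15 (-0.46 ± 0.20, adjusted p = 0.0416) and Bst2 (-0.63 ± 0.12, adjusted p = 1.26e-05) fell. These were the members that fell after both operations, whereas Ifih1, Ddx58, Oas2 and Parp14 rose after both. Under library totals in place of TMM scaling the median of all tested genes moved from 0.07 to 0.27 and 20 members were higher and 1 lower. Of the cell markers, 3 of 6 for monocyte-derived macrophages were higher after castration and 1 lower, 2 of 5 for neutrophils were lower, and 1 of 9 for Kupffer cells was higher and 1 lower. For T and NK cells 2 of 10 were higher and 1 lower, for B cells 1 of 5 was higher, for plasmacytoid dendritic cells 2 of 5 were higher and 1 lower, and for hepatocytes 1 of 6 was higher and 2 lower. Their part in the members' changes was not tested either.

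**Figure D5:**
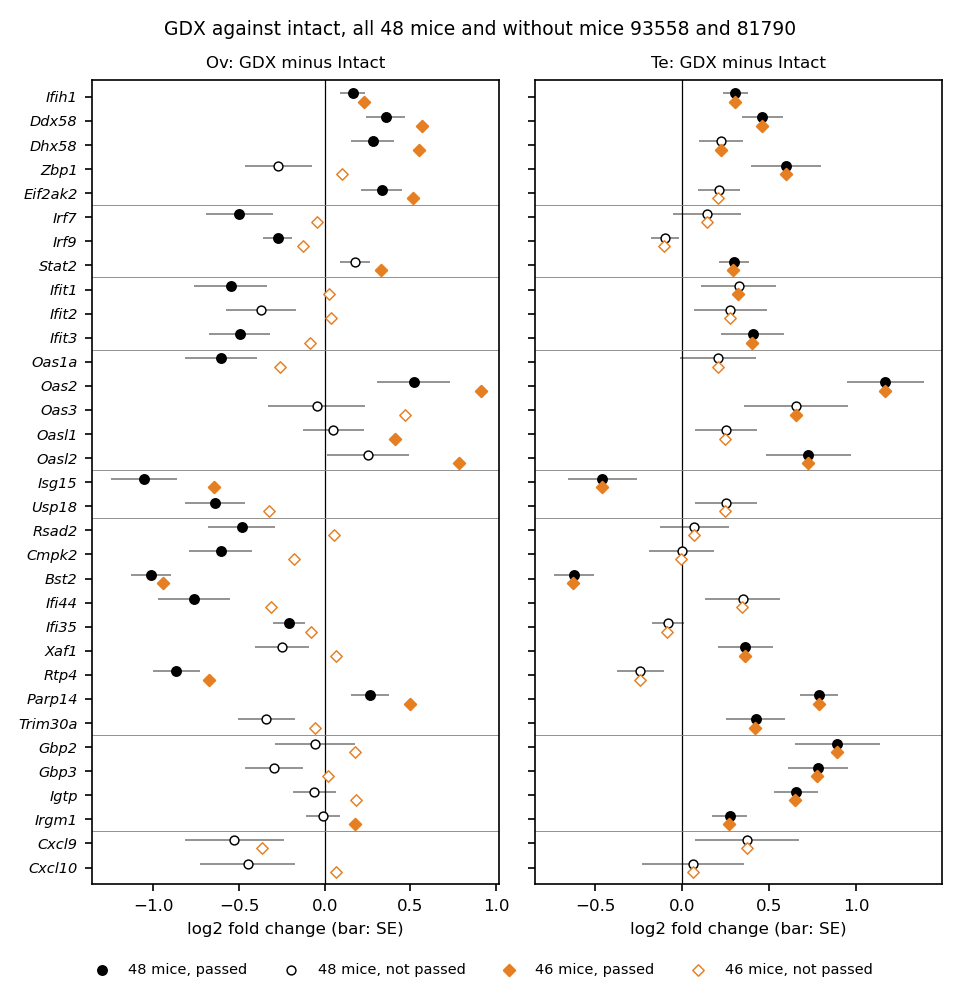
Log2 fold change, GDX minus Intact, of each of the 33 genes (vertical axis) in Ov mice (left) and Te mice (right), with SE bars, circles for all 48 mice and diamonds for 46, filled where the adjusted p was under 0.05. Bst2 and Isg15 lie left of 0 in both panels, and several open diamonds in the left panel, such as Ifit1 and Rsad2, have moved to the other side of 0.

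The effect of castration was then set against that of ovariectomy as a difference of differences. It passed for 8 of 33 members, against 5.6% of all tested genes (2.78% in the positive and 2.82% in the negative direction), and in all 8 the change after castration was the more positive. They were Ifi44 (1.11 ± 0.30, adjusted p = 0.0196), Gbp3 (1.08 ± 0.24, adjusted p = 0.00424), Ifit3 (0.90 ± 0.25, adjusted p = 0.0267), Usp18 (0.89), Trim30a (0.76), Igtp (0.71), Rtp4 (0.63) and Parp14 (0.52). Ifit3 was the only member that fell after ovariectomy and rose after castration. In 46 mice 2 members passed, with a background of 7.41%, and leaving out single mice in turn gave from 5 to 16.

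The type of gonad that had been removed was compared among GDX mice, and edgeR and DESeq2 both called none of the 33 members. One member had an unadjusted p under 0.05 in edgeR, and only 0.0908% of all tested genes were called, 0.0584% with the higher level in Ov and 0.0324% with the lower. The smallest p-values were those of Zbp1 (log2 fold change 0.40 ± 0.20, adjusted p = 1.0), Igtp (0.22 ± 0.12, adjusted p = 1.0) and Dhx58 (0.22 ± 0.13, adjusted p = 1.0). The median over the members was 0.13, beside 0.74 for the same contrast in intact mice. The difference between those contrasts is the difference of differences given above.

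The rest of the interferon pathway was read from lists chosen by name. The counts of these lists stand beside the shares of all tested genes. With ovaries in intact mice 14.1% of all tested genes were higher and 11.3% lower. In XX after GDX 19.5% were higher and 14.8% lower. Of 10 ligand genes listed, Ifna1 and Ifnz were not matched to a gene of the table. None of the other 8 (among them Ifnb1, Ifng and Ifnk) passed the filter on low counts, and Ifng had at most 8 reads in a mouse. Of 6 receptor genes, 3 were higher with ovaries in intact mice, namely Ifngr1 (0.55), Il10rb (0.56) and Ifnar2 (0.21). After GDX 3 were lower in XX: Ifnlr1, the receptor of lambda interferons, at -3.87, Il10rb at -0.92 and Ifngr1 at -0.87. The receptor counts were the same in 46 mice. Among the interferon regulatory factors outside the 33 genes, Irf1 (0.46) and Irf8 (0.62) were higher with ovaries and Irf2 was lower (-0.43), and after GDX Irf1, Irf5 and Irf8 were lower in XX.

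Of 13 genes for nucleic acid sensing, 4 were higher and 1 lower with ovaries (38.5% called, beside 25.3% of all tested genes). In XX after GDX 1 was higher and 8 were lower, beside 34.3% of all tested genes in either direction. They include the DNA sensors Cgas (-1.65) and Tlr9 (-3.34), Sting1 (-1.12) and the TLR chaperone Unc93b1 (-1.13), with Tlr7 and Tlr8 as given above. In intact mice 6 of 13 were lower in XX (46.2%, beside 10.7% of all tested genes in either direction), although no member passed there. All of these sensing counts were the same in 46 mice. Of 4 tested brakes on the pathway, Socs3 (-1.74), Ptpn6 (-1.63) and Samhd1 (-1.13) were lower in XX after GDX. In 46 mice 5 brakes passed the filter on low counts and 4 were lower.

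A longer list of 58 other tested interferon-stimulated genes was counted in the same way. In intact mice 45 were higher with ovaries and none was lower (77.6% called, beside 25.3% of all tested genes). They were led by Tgtp1 (1.99 ± 0.35) and Slfn1 (1.81 ± 0.33), a GTPase and a Schlafen gene. After GDX 30 were lower in XX and 1 higher, beside 34.3% of all tested genes in either direction. Those lower were led by Ifit1bl1 (-5.94 ± 0.42) and Slfn2 (-2.63 ± 0.28). Between XX and XY intact mice 5 were lower (Ifit1bl1, Slfn2, Phf11b, Ifi204 and Ifi207) and Dtx3l was higher (0.19 ± 0.05). That share, 10.3%, was near the 10.7% of all tested genes. In 46 mice 39 were higher and 1 lower with ovaries, 33 were lower and 1 higher in XX after GDX, and 13 were lower and 1 higher in XX among intact mice. The shares of all tested genes called in 46 mice were 31.8%, 35.5% and 12.7%, in the same order. After ovariectomy 28 were lower and 10 higher (65.5% called, beside 69.4% of all tested genes), but 18 lower and 19 higher in 46 mice. After castration 25 were higher and 5 lower (51.7%, beside 63.3%), and in 46 mice 27 and 5. The shares called after gonadectomy were thus no larger than the background. Another 4 genes of this list (Ifi27, Psmb9, Phf11d and Helz2) were not matched. Ifit1bl1 is a close relative of Ifit1, and reads shared among such copies, or among Gbp, Oas and Ifi200 family genes, could be divided differently by another counting rule.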

How the data were processed

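Liver RNA of 48 mice was sequenced, 6 mice in each of 8 groups, and the table the authors deposited holds whole-number counts of reads per gene, not normalized. The submitters' processing notes name STAR 2.7.10a, the GRCm39 build and DESeq2 1.36.0, and the annotation release and the strand setting are not given in the sources used here. The authors extracted RNA with TRIzol from snap-frozen liver and made mRNA libraries. The 4 summary lines that name no gene held 25.5% to 42.3% of the reads and were left out. Symbols were matched for 31020 of 55414 gene identifiers (56.0%), for all 33 members, and for all but 6 genes of the other lists. Exon lengths came from a GENCODE annotation of another build (NCBIM37) and were used only for levels per kilobase.

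The members and the other gene lists were chosen with earlier results of these data known, so that no list was tested as a set. Genes with enough reads in as many mice as a group holds were kept (filterByExpr, 15414 genes). Counts were scaled with TMM and fitted as 8 group means over all 48 mice in edgeR 4.0.16 (R 4.3.3) with the robust quasi-likelihood test, and p-values were adjusted over all tested genes by the Benjamini-Hochberg method, with a threshold of 0.05. Contrasts average over the factors that they do not name. CPM values are after TMM scaling. TMM factors were 0.742 to 1.08 in intact mice, 0.946 to 1.07 in XX GDX mice and 1.07 to 1.24 in XY GDX mice. The level per mouse is the mean log2 CPM with a prior count of 2. On simulated counts with the depth of these mice, the test recovered 84.7% of genes set to a log2 change of 1 and 52.5% of those set to 0.5 in the comparison of gonads in intact mice (15048 genes). For XX against XY in GDX mice it recovered 83.8% and 52.0% (15023 genes).

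Mice are separate animals, and p-values measure the spread among them. The 120 pairs of mice within groups differed by a chi-square of 5.36 to 199 per gene, above sampling noise, so that no library was counted as a repeat. A floor of 3 reads covers counting error only. Alternatives were DESeq2 size factors, library totals, no filter, 47 mice, 1 surrogate variable (sva 3.50.0), a fit of the compared groups alone, the DESeq2 1.42.0 Wald test, and leaving out each mouse in turn. Leaving out the highest mice was added after the data were seen. Genes given with full values were the 3 members with the largest log2 fold changes among those called in a contrast (the 3 smallest p where none was called), with 1 fixed gene per role: Ifih1, Irf7, Ifit1, Oasl2, Isg15, Rsad2, Igtp and Cxcl10. Values of other members were added by role. Genes outside the 33 were named from the lists, up to 6 a list and contrast by size of change.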

Additional observations from a re-analysis of the deposited data

Results flagged for a closer look

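Of 72 sets of 6 mice (8 groups, for the level of the 33 genes and for 8 genes), 10 held a mouse far from the other 5, when chance flags about 1 in 20 groups. Mouse 14614 of XX Te Intact was far above its group in Irf7 (51.2 CPM, next 21.0), Oasl2 (15.5 CPM, next 8.07), Igtp (32.2 CPM, next 23.3) and Cxcl10 (9.82 CPM, next 3.86). These are readings of 1 liver, and the same mouse had the lowest summed hepatocyte markers of all 48. Ifit1 stood at 112 CPM in XX Ov Intact mouse 93558, with the next mouse at 40.2, and at 14.2 CPM in an XX Te GDX mouse, next 12.4. It was low at 7.0 CPM in XY Te Intact mouse 76370, where the next lowest was 10.7. Isg15 stood at 4.29 CPM in an XX Te GDX mouse, next 3.08. Igtp stood at 62.5 CPM in XY Ov GDX mouse 76112, next 46.8, and at 54.4 CPM in XY Te GDX mouse 28605, next 41.0. In XX Ov Intact the second high mouse, 81790, keeps 93558 from standing alone, so that of the 8 genes only Ifit1 was picked out in that group.

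The effect of sex chromosomes differed between intact and GDX mice by the interaction test for Gbp3 (-0.90) and Igtp (-0.73). The effect of castration differed from that of ovariectomy for Ifi44 (1.11), Gbp3 (1.08), Ifit3 (0.90), Usp18 (0.89), Trim30a (0.76), Igtp (0.71), Rtp4 (0.63) and Parp14 (0.52), all on the log2 scale and all more positive after castration. Without the 2 highest XX Ov Intact mice, 0 and 2 members passed these tests.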

How the results depend on the processing

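The higher level with ovaries in intact mice (27 members) and the lower level in XX after GDX (21 members) kept their direction and stayed within 1.5 times their count under every alternative run, 24 to 27 and 15 to 24 members when single mice were left out. The module level per group moved by less than 1 SD under every alternative. Without the 2 highest XX Ov Intact mice the counts were 21 for sex chromosomes over all mice, 5 in intact mice, 0 for the interaction with GDX and 2 for castration against ovariectomy. Without mouse 14614 as well they were 23, 12, 0 and 11, the last including all 8 of the 48-mouse calls, with 25 after castration. With 1 surrogate variable they were 12 over all mice (1 higher and 11 lower), 1 in intact mice, 1 for the interaction and 10 after castration, and 17 members were lower and none higher after ovariectomy. The interaction gave 8 members with DESeq2 size factors, 12 with library totals, 4 with 47 mice and 13 with the DESeq2 Wald test. In the fit of the compared groups alone it gave 0, and the cause was not tested. For the interaction that fit held all 48 mice, with Ov and Te merged. After ovariectomy, library totals gave 12 members (7 higher and 5 lower) and the compared groups alone gave 11. Castration against ovariectomy gave 4 members with library totals, 4 with the compared groups alone (all 48 mice, XX and XY merged) and 2 with no filter.

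Leaving out single mice gave 7 to 12 members for sex chromosomes over all mice, with the most without XX Ov Intact replicate 5, 0 to 3 in intact mice, and 5 to 16 for castration against ovariectomy, with the most without XX Te Intact replicate 2. For the interaction it gave 0 (without the same replicate 2) to 18 (without XX Ov Intact replicate 6). Ovariectomy gave 15 to 20 and castration 12 to 19. Of 94 gene results named, 39 lost their call in at least 1 alternative, 24 of them when a single mouse was left out. Under ovariectomy Ifit1 reversed to 0.0266 without the 2 highest mice and 0.0242 without all 3, and Rsad2 to 0.0527 and 0.0499.

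Library totals moved the median log2 fold change of all tested genes to 0.27 after ovariectomy, 0.27 after castration and -0.10 for XX against XY after GDX. No paired analysis was possible because the mice of different groups share no number in the labels. The ligand genes could not be compared, since none of the 8 matched had enough reads to be tested. The part of depth in this was not tested.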
